A study of Mus musculus with 6 samples.

Results

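The immediate early genes are a set of 10 genes, picked by name: Fos, Fosb, Jun, Junb, Egr1, Ier2, Ier3, Dusp1, Zfp36 and Atf3. All 10 were found among the 23337 gene symbols of each library, and all 10 passed the filter on low counts. They were measured in alveolar type II (AT2) cells of the mouse lung, the surfactant-making cells of the alveolus, isolated as Tomato-positive cells by flow cytometry 10 days after Pseudomonas aeruginosa (PA) induced acute lung injury. The 3 mutant libraries had the genotype SpC-CreER/Dlk1flox/ROSA-Tomato and the 3 wild-type libraries SpC-CreER/ROSA-Tomato. Both groups thus carried the inducible Cre driven by the surfactant protein C gene's promoter, the Tomato reporter and the injury. The mutant group differed by the floxed Dlk1, which encodes a transmembrane relative of the Notch ligands. The labels also mention a culture of 8 days, and do not settle whether the cells used for RNA were cultured. They give neither an uninjured group, nor cells that were not sorted, nor the time between tissue and lysis. They do not state that each library came from its own animal, so the spread behind each p-value may be technical.

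Immediate early genes are transcribed within minutes of a stimulus, from factors already present in the cell, and their messages are short-lived. Growth factors, cytokines, mechanical strain and stress reach them through MAP kinases, which act on SRF with its ternary complex partners and on CREB and ATF factors at their promoters. Enzymatic dissociation and sorting of a tissue are known to induce the same genes, so their level in sorted cells depends on the handling as well as on the tissue. Within the set, Fos, Fosb, Jun and Junb encode subunits of the dimeric transcription factor AP-1, and Atf3 and Egr1 encode further transcription factors. Ier2 and Ier3 encode small early-response proteins. Dusp1 encodes a phosphatase that switches off p38 and JNK, and Zfp36 encodes tristetraprolin, which binds AU-rich sites in messages and speeds their decay.

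Sequence features that the choice of genes did not use were read from the reference. The promoters of Fos, Dusp1 and Zfp36 are shown as examples of the sites that were searched for. RefSeq (GRCm38.p6) gave promoters for 8 members, namely Fos, Fosb, Jun, Junb, Ier3, Dusp1, Zfp36 and Atf3, and the 250 bases before the start of each were searched on both strands. Capitals mark the CREB and ATF core TGACG, which also lies within the full cyclic AMP response element TGACGTCA, and the CArG box, the SRF site.
Fos promoter, chr12:85473640-85473889, plus strand: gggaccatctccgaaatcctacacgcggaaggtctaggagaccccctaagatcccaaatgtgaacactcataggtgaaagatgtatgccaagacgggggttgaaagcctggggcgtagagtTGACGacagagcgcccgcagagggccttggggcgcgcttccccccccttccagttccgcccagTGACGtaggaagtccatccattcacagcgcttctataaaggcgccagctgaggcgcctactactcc
Dusp1 promoter, chr17:26508473-26508722, minus strand: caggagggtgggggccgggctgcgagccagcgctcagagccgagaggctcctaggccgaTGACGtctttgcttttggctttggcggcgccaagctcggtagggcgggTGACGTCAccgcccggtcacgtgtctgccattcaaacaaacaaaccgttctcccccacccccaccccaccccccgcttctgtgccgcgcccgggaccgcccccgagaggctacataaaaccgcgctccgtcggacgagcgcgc
Zfp36 promoter, chr7:28379229-28379478, minus strand: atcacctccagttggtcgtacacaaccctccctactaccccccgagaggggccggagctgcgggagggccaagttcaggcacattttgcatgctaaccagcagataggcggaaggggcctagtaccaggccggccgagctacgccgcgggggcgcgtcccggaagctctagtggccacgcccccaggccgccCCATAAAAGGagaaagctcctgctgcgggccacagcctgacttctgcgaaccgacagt
The core TGACG was found in 5 of the 8 promoters and in 17.8% of all 32851 promoter windows of the same length. The full element TGACGTCA was found in Dusp1 alone of the 8, ending 136 bases before the start, and in 1.55% of all windows. The CArG box was found in Zfp36 alone, 58 to 49 bases before the start, and in 1.47% of all windows. Other motifs were searched for in the same windows and are not in capitals. The AP-1 site TGACTCA was found in 0 of the 8, against 4.46% of all windows. The EGR site GCGGGGGCG was found in 2 (2.57%) and the GC box GGGCGG in 7 (32.7%). The CCAAT box was found in 3 (33.8%) and the TATA box TATAAA in 1 (12.4%). The windows were not matched for base content. A match is a description of the letters, and sites farther upstream were outside the windows.

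The 3′ untranslated regions (UTRs) of the members were read from the longest basic transcript in GENCODE M21, on GRCm38. AU-rich elements are built on the pentamer ATTTA, and the longer forms TATTTAT and TTATTTATT, which contain it, are the letters that tristetraprolin is known to bind. The members had a median of 3.56 ATTTA per kb of 3′ UTR, against 1.29 over the 11163 tested genes with a 3′ UTR and 1.38 over the 5421 of them whose 3′ UTR was within the members' range of 485 to 2145 bases. At least 1 TATTTAT was found in 7 of 10 members and in 27.3% of genes in that length range. TTATTTATT was found in Fos, Dusp1 and Zfp36 itself, and in 6.62% of genes in that length range. Ier3 had the densest 3′ UTR at 8.16 ATTTA per kb, and Ier2 had none. Fosb, with the longest 3′ UTR of the 10, had 1 ATTTA in 2145 bases. The sites below, each in the 3′ UTR, show TTATTTATT in capitals where it was present and TATTTAT in the other 2.
Fos, chr12:85477103-85477132, plus strand: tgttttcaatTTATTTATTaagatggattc
Dusp1, chr17:26506158-26506187, minus strand: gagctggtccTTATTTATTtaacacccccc
Zfp36, chr7:28376950-28376979, minus strand: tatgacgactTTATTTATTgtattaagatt
Ier3, chr17:35822481-35822510, plus strand: tgtctaattaaTATTTATgtatttatgtat
Atf3, chr1:191170337-191170366, minus strand: aaaatattactTATTTATcccagtattcct

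Library totals were 22511461 to 30695994 counts, and each member had at least 974 counts in each library, so counting error was small beside the spread between libraries. The target Dlk1 had at most 2 counts in any library, below the floor of 3 counts, and did not check the labels. AT2 markers summed to between 161320 CPM (counts-per-million of the library total) in mutant 1 and 206393 CPM in wild type 1. Mutant 1 was the lowest library for 11 of the 12 AT2 markers. Markers of other cells were far higher in mutant 1 than elsewhere. Its fibroblast markers summed to 457 CPM against 7.5 to 18.8 CPM in the other 5 libraries, its macrophage and monocyte markers to 665 against 56.0 to 119 CPM, and its club and ciliated markers to 9036 against 548 to 862 CPM. Neutrophil markers summed to 71.0 CPM there against 0.80 to 2.43 CPM, lymphocyte markers to 185 against 24.5 to 32.1 CPM and endothelial markers to 319.7 against 182 to 209 CPM. Of the tested markers, mutant 1 held the highest level of 8 of 10 leukocyte, 8 of 8 macrophage and monocyte, 5 of 5 lymphocyte, 6 of 6 fibroblast, 6 of 7 endothelial and 9 of 9 club and ciliated genes. The leukocyte sum differed less (5199 against 4013 to 4737 CPM), since it holds Cd74, which AT2 cells also express, and the neutrophil gene S100a8 had 0 counts in mutant 2 and wild type 3. Ptprc, a marker of leukocytes, had 141 CPM there and 2.09 to 7.59 CPM elsewhere. Many of these cells also express immediate early genes, and their part in the values of mutant 1 was not tested. In bulk samples, fewer cells with a transcript and less transcript per cell cannot be told apart.

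Together the 10 genes made up 1.38%, 1.45% and 1.6% of all counts in mutants 1, 2 and 3, and 1.08%, 1.73% and 1.58% in wild types 1, 2 and 3. The lowest and the highest share were thus both in the wild-type group, and the mutant libraries lay between them. The group means were 1.48% ± 0.11 and 1.46% ± 0.34 (SD, n = 3 each). By mean TMM-normalised CPM, which is not corrected for transcript length, Jun ranked 19th, Fos 21st, Fosb 24th and Egr1 35th of all 23337 genes, in cells whose most abundant transcripts are those of surfactant. Atf3 ranked 66th, Zfp36 85th, Junb 133rd, Dusp1 192nd and Ier2 370th. Ier3 stood apart from the other 9 at rank 3317.

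**Figure D1:**
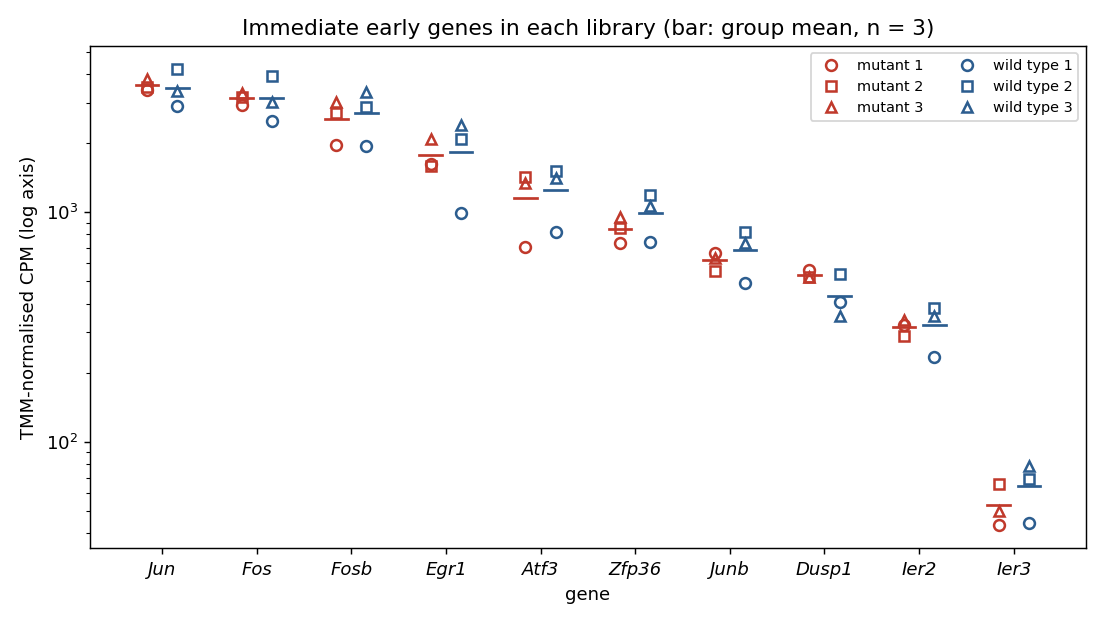
Each point is 1 library, with TMM-normalised CPM on a log axis against the 10 genes ordered by mean CPM without length correction, mutants in red and wild types in blue, and bars at group means. The 2 groups overlap in every gene, and wild type 1 is the lowest library in 6 of the 10.

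To compare genes with each other, levels were divided by length, as TMM-normalised CPM per kb of the longest basic transcript, averaged over all 6 libraries with the SD over them. On this scale the order of Fos and Jun turned, and Fos led with 1487 ± 223 CPM per kb, followed by Jun with 1106 ± 139, Fosb with 696 ± 151 and Atf3 with 605 ± 174. Egr1 had 400.1 ± 111, Junb 359 ± 65.3, Zfp36 330.1 ± 64.4, Dusp1 243 ± 41.6, Ier2 210.4 ± 33.9 and Ier3 51.8 ± 12.9. The neighbours Fosb and Atf3, Egr1 and Junb, Junb and Zfp36, and Dusp1 and Ier2 differed by less than their SDs over libraries. Sftpc, the surfactant protein C gene, stood at 62495 ± 5651 CPM per kb, 42.0 times the level of Fos.

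The abundance did not extend to every relative of these genes. Among AP-1 genes outside the set, Jund stood at 573 ± 54.0 CPM per kb, between Atf3 and Egr1. Fosl2 stood at 13.9 ± 3.46 CPM per kb, 107 times below Fos. Fosl1, which is itself a target of AP-1, had 0 to 24 counts in a library, and its mean per kb was 4957 times below that of Fos. Of the EGR genes, Egr2 stood at 2.90 ± 1.36 CPM per kb. Egr3 had 2 to 15 counts in 5 libraries and 141 in mutant 1. Egr4 had at most 5 counts in any library, and Npas4, an early gene of neurons, at most 3. Among the nuclear receptors Nr4a1 stood at 179 ± 46.2 CPM per kb, but Nr4a2 at 2.08 ± 0.64 and Nr4a3 at 0.79 ± 0.43.

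Mutant and wild-type libraries were then compared, to ask whether the floxed Dlk1 genotype went with another level of early-response transcripts 10 days after injury. Loss of Dlk1 itself could not be read from its counts. The log2 fold change (mutant minus wild type) was below 0 for 8 of the 10 genes and above 0 for 2, with a median of -0.06, against 0.00 over all 12899 tested genes. With the replicate number as a block it was below 0 for 5 and above 0 for 5. Within the 3 pairs of libraries that share a number, Ier3, Zfp36 and Atf3 were lower in the mutant in each pair, against 15.6% of all tested genes. In the pair numbered 1 the log2 difference of TMM-normalised CPM was only -0.04 for Ier3 and -0.01 for Zfp36, close to a tie. Scaled to the library total, both genes were higher in mutant 1 than in wild type 1. Ier3 then had 46.3 against 43.3 CPM, and Zfp36 had 786 against 721 CPM. None of the 10 was higher in each pair, against 15.3%. With the block the unadjusted edgeR p-values of Ier3, Zfp36 and Atf3 were 0.119, 0.137 and 0.273, and that of Dusp1 was 0.0582. In edgeR's quasi-likelihood test, 0 of the 10 had an adjusted p (Benjamini-Hochberg) under 5%, as did 0% of all tested genes. At an unadjusted edgeR p under 5% there were also 0 of the 10, against 6.58% of all tested genes. DESeq2 and limma-voom also called 0 of the 10 after adjustment. Over all genes, DESeq2 called 0.306% of the 15018 with an adjusted p, and limma-voom called 0. At an unadjusted p under 5%, DESeq2 gave 1 of the 10, Dusp1, against 6.21% of all genes with a DESeq2 p, and limma-voom gave 0, against 10.0% of all tested genes. The groups did not overlap in 0 of the 10 genes, against 11.7% of all tested genes.

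Fos, the AP-1 subunit whose message is among the fastest to appear, had 2922, 3162 and 3291 TMM-normalised CPM in mutants 1, 2 and 3, against 2501, 3921 and 3014 CPM in wild types 1, 2 and 3. The 3 mutants lay within the range of the wild types. The log2 fold change was -0.01 ± 0.17 (SE), with a 95% interval of -0.42 to 0.40 and an edgeR adjusted p of 0.992. Fosb, which forms the same kind of dimer with Jun proteins, stood at 1953, 2696 and 3016 CPM in the mutants and at 1940, 2868 and 3329 CPM in the wild types. Here mutant 1 and wild type 1 were low together, and the other 4 libraries were 1.38-fold or more above both. Its log2 fold change was -0.09 ± 0.24, with an interval of -0.64 to 0.47. Within each library, Fos exceeded Fosb per kb by 2.68, 2.10 and 1.96 times in the mutants and by 2.31, 2.45 and 1.62 times in the wild types.

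Jun, the partner of Fos proteins and a subunit that also pairs with itself, stood at 3389, 3518 and 3795 CPM in the mutants and at 2900, 4206 and 3352 CPM in the wild types. It had the narrowest range of the 10 over all libraries, 1.45-fold, and a log2 fold change of 0.03 ± 0.15 (-0.33 to 0.40). Junb, a Jun protein that is the weaker activator at many sites, stood at 663, 556 and 635 CPM in the mutants and at 491, 818 and 735 CPM in the wild types. Wild types 1 and 2 were its lowest and highest libraries, with all mutants between them. The difference was -0.14 ± 0.19 on the log2 scale (-0.58 to 0.30). For Fos and Jun the intervals left room for differences of at most 1.33-fold in either direction.

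Egr1, a zinc finger factor under SRF control, varied most among the 10, by 2.41-fold over the libraries. It stood at 1627, 1586 and 2089 CPM in the mutants and at 990, 2084 and 2387 CPM in the wild types. Wild type 1 was lowest by far, and wild type 3 highest, so that the mutants again fell between wild types. The log2 fold change was -0.04 ± 0.31 (-0.77 to 0.68). Atf3, a stress-induced member of the ATF family that restrains inflammatory genes, stood at 706, 1427 and 1333 CPM in the mutants and at 819, 1509 and 1406 CPM in the wild types. Mutant 1 and wild type 1 formed the low pair, as in Fosb, and the remaining 4 libraries lay close together. Its difference was -0.11 ± 0.32 (-0.85 to 0.64).

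Ier2, an early gene whose product acts in the nucleus, stood at 324, 290 and 339 CPM in the mutants and at 235, 381 and 353 CPM in the wild types, with a log2 fold change of -0.03 ± 0.18 (-0.45 to 0.39). Ier3, which encodes a protein that modulates cell survival and ERK signalling, stood at 43.4, 65.9 and 49.9 CPM in the mutants and at 44.5, 69.3 and 78.2 CPM in the wild types. Mutants 1 and 3 and wild type 1 were its low libraries, across the groups. Its log2 fold change of -0.27 ± 0.23 (-0.82 to 0.28) did not pass the test (edgeR adjusted p = 0.806).

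The feedback genes gave the largest differences upward and, beside Ier3, downward. Dusp1, which ends the MAP kinase signal, stood at 558, 520 and 524 CPM in mutants 1, 2 and 3, and at 406, 537 and 353 CPM in wild types 1, 2 and 3. The mutants were close together, and only wild type 2 reached them. The log2 fold change was 0.31 ± 0.15 (-0.06 to 0.67), with an unadjusted edgeR p of 0.0871 and an adjusted p of 0.739. Per kb, Dusp1 was 0.20, 0.17 and 0.17 times the level of Fos in the mutants and 0.17, 0.15 and 0.12 times in the wild types, and the groups overlapped in this ratio as well. Zfp36, which shortens the life of AU-rich messages including its own, stood at 735, 850 and 954 CPM in the mutants and at 741, 1183 and 1062 CPM in the wild types. Wild types 2 and 3 were above each mutant, while wild type 1 was at the level of mutant 1. The log2 fold change was -0.23 ± 0.19 (-0.68 to 0.21), with an edgeR adjusted p of 0.796.

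**Figure D2:**
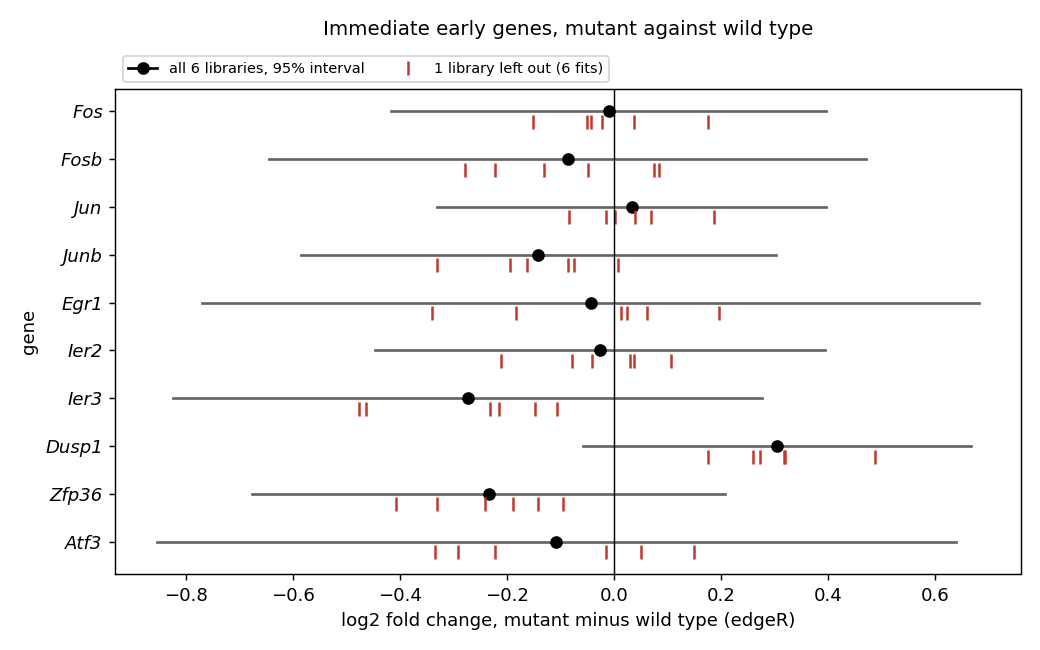
Black points and grey lines are edgeR log2 fold changes (mutant minus wild type) with 95% intervals from all 6 libraries, and red ticks are the 6 fits that leave out 1 library each. All intervals include 0, and the ticks stay on 1 side of 0 for Ier3, Dusp1 and Zfp36.

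The sign of most of these differences turned on single libraries. Without wild type 1, 9 of 10 genes were negative with a median of -0.30, and Junb, Ier3 and Zfp36 had an unadjusted edgeR p under 5%, against 4.12% of all genes tested in that fit, though none was called after adjustment (lowest edgeR adjusted p of the 10, 0.914). Without wild type 2, 7 of 10 were positive with a median of 0.06, and Dusp1 had an unadjusted edgeR p under 5%, against 3.46% of all genes tested in that fit, and was not called after adjustment (edgeR adjusted p = 0.959). Without mutant 1, 6 were positive, with a median of 0.03. Over all the alternatives run, Dusp1 was higher in the mutant group in each (log2 fold change 0.18 to 0.49) and Ier3 lower in each (-0.48 to -0.08), and neither passed the threshold in any.

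The levels also varied between libraries of the same group. In wild type 1 all 10 genes lay below their own mean over the 6 libraries, by 0.23 to 0.80 on the log2 scale, and in wild type 2 all 10 lay above it, by 0.15 to 0.39. Wild type 1 was the lowest library for 6 genes and among the lowest 2 for all 10. Scaled to the library total instead, it was the lowest for 8 and again among the lowest 2 for all 10. By TMM-normalised CPM, mutant 1 was lowest for Ier3, Zfp36 and Atf3 and highest for Dusp1, which was lowest in wild type 3. Scaled to the library total, mutant 1 was the lowest for 1 gene, Atf3, and again the highest for Dusp1. Of the 730 tested genes with at least 200 CPM on average, 49.5% were lowest in mutant 1 and 15.3% in wild type 1. The highest library exceeded the lowest by a median of 1.64-fold in the 10 genes and 1.29-fold in those 730 genes. Within the groups, the wild-type libraries spanned the wider range for 9 of 10 genes (1.45- to 2.41-fold), and Atf3 was the exception, with 2.02-fold in the mutants and 1.84-fold in the wild types.

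**Figure D3:**
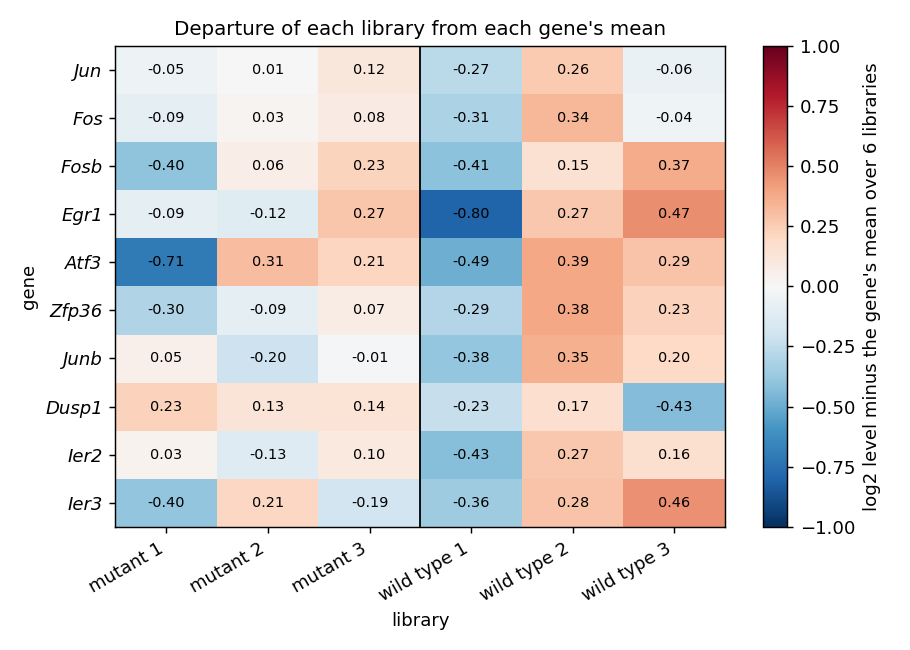
Colours and numbers give each library's log2 level minus the gene's mean over the 6 libraries, with genes in rows, libraries in columns and a line between the groups. Wild type 1 is below the mean and wild type 2 above it in all 10 rows, while mutant 1 departs most in Atf3, by -0.71.

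The genes compared share the depth and sorting of the 6 libraries. As a measure of how alike the patterns were, the Pearson r of log2 CPM over the 6 libraries was computed with each of the other 9 genes. These 9 values of r were then averaged. This mean r was 0.72 for Fos, 0.71 for Ier2, 0.70 for both Zfp36 and Jun, 0.69 for Egr1, 0.65 for Junb, 0.63 for Fosb, 0.62 for Atf3 and 0.54 for Ier3. Dusp1 followed the others least, with 0.09, and with 0.26 without mutant 1, again the lowest of the 10. Its r was 0.50 with Fos and 0.59 with Jun, and -0.32 with Ier3. Among 8617 other genes with at least 10 CPM on average, Usp16 (mean r = 0.80), Evi5 (0.79), Tank (0.79), Dmtf1 (0.78) and Orc3 (0.78) were most like the set. Each of the 5 was lowest in wild type 1 and highest in wild type 2. Picking the highest mean r of 8617 genes over 6 libraries favours such an order, so it is a description only. Their ranges were narrower than those of the members, as in Usp16, from 45.5 CPM in wild type 1 to 55.2 CPM in wild type 2.

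Further early-response genes were taken from lists. Of 25 tested transcription factors, 10 were positive and 15 negative in log2 fold change, with a median of -0.08. Among them 0 passed the edgeR threshold, as did 0% of all tested genes. An unadjusted edgeR p under 5% was also found for 0, against 6.58% of all tested genes. Mafk, a small Maf partner, averaged 70.8 ± 2.76 CPM in the mutants and 84.4 ± 12.6 CPM in the wild types and was the only 1 of the 25 whose groups did not overlap, against 11.7% of all tested genes. Klf2 averaged 149 ± 42.9 against 108 ± 23.0 CPM, Irf1 105 ± 11.2 against 124 ± 14.8 CPM and Klf9 145 ± 41.8 against 205 ± 66.5 CPM (SD, n = 3 each), and each of these overlapped between the groups. The abundant Klf6 followed the libraries like the members, with 939 CPM in wild type 1 and 1093 CPM in mutant 1 against 1440 to 1581 CPM in the other 4. Nr4a1 stood at 241 CPM in wild type 1 and at 460 to 603 CPM elsewhere. Of the 25, 10 were lowest in wild type 1, against 19.1% of all tested genes, and 15 were highest in wild type 3, against 14.0%.

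Of 32 feedback and signalling genes, 17 were positive and 15 negative, with a median of 0.01, and 0 passed the edgeR threshold. Unadjusted edgeR p-values under 5% were found for 2 higher genes, where 3.69% of all tested genes were higher at that level, and for 5 lower genes, where 2.89% were. The 5 lower genes were also those whose groups did not overlap, against 6.43% of all tested genes lower without overlap. Dusp4, a nuclear ERK phosphatase, stood at 23.8, 27.98 and 19.04 CPM in the mutants and at 47.1, 36.4 and 44.8 CPM in the wild types, a log2 fold change of -0.86 ± 0.16. It ran opposite in sign to its relative Dusp1, and DESeq2 called it (adjusted p = 0.00892) while edgeR did not (0.737). Pim3, a survival kinase, averaged 93.9 ± 5.70 against 143 ± 32.0 CPM. Gadd45g, a growth arrest gene, averaged 31.04 ± 5.15 against 42.5 ± 2.02 CPM. Socs3, which ends cytokine signalling through STAT3, averaged 177 ± 22.7 against 223 ± 9.45 CPM, and the fifth gene was Spry4, at 2.996 ± 0.722 against 4.94 ± 0.31 CPM. The 2 higher genes, Rgs1 and Rgs2, stood at 37.7 and 41.2 CPM in mutant 1 and at no more than 3.35 CPM elsewhere. Of the 32 genes, 17 were lowest in wild type 1, against 19.1% of all tested genes, and 16 were highest in wild type 3, against 14.0%.

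The 16 secreted and surface genes were positive in 13 cases, with a median of 0.44, and 0 passed the edgeR threshold. An unadjusted edgeR p under 5% was found for 3, all higher, against 3.69% of all tested genes higher at that level. These were Cxcl2, a neutrophil chemokine, Cd69, a lymphocyte activation antigen, and Plaur, the urokinase receptor. They stood at 15.5, 34.5 and 23.5 CPM in mutant 1 and at no more than 3.46 CPM in any other library. Groups did not overlap in Cxcl2, Plaur and Ereg, each higher in the mutants, against 5.23% of all tested genes. The gap was narrow for Cxcl2, with 1.75 CPM in mutant 2 against 1.48 CPM in wild type 2. It was also narrow for Plaur, with 1.71 CPM in mutant 2 against 1.47 CPM in wild type 3. Ereg, an EGF receptor ligand, stood at 0.46, 1.2 and 0.56 CPM in the mutants and at 0.32, 0.16 and 0.33 CPM in the wild types. The markers of leukocytes that moved with mutant 1 are given above, and their part was not tested. Wild type 1 was lowest for 10 of the 16, against 19.1% of all tested genes. Among the 10 was Thbs1, the gene of thrombospondin, with 174 CPM in wild type 1 and 428 to 505 CPM in the other 5 libraries. The summed level of the list was 706 CPM in wild type 1 and 1329 to 1392 CPM in the other libraries.

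The kinases and factors upstream of these genes varied little. Of 25 tested, 13 were positive and 12 negative, with a median of 0.00. An unadjusted edgeR p under 5% was found for 0, against 6.58% of all tested genes. Their summed level ran from 1811 to 1969 CPM, a 1.09-fold range, where the summed level of the members ran over 1.61-fold. Map2k4 (0.11 ± 0.08), Creb1 (0.17 ± 0.15), Elk4 (0.15 ± 0.15) and Mapk9 (-0.07 ± 0.07) had the smallest p on the log2 scale. These are transcript levels, and the activity of the kinases was not measured.

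Heat shock genes, which dissociation and sorting can also induce, were read beside the members. Their summed level ran from 2751 CPM in mutant 3 to 3345 CPM in wild type 3, a 1.22-fold range. Wild type 1, with the lowest member levels, had 2849 CPM. The sum hid a wider range of single genes, whose highest library exceeded the lowest by a median of 1.56-fold, against 1.64-fold in the members. Gene by gene, wild type 1 was the lowest library for 6 of the 13, more than any other, against 19.1% of all tested genes. The median log2 ratio of wild type 1 to the mean of the other 5 libraries was -0.16, the lowest of the 6 libraries (-0.44 for the members). Hspa1a, an inducible Hsp70 gene, stood at 63.3, 39.3 and 32.9 CPM in the mutants and at 16.6, 34.2 and 29.9 CPM in the wild types, and was lowest in wild type 1. Its near-identical copy Hspa1b stood at 59.3, 28.7 and 11.7 against 8.09, 23.2 and 13.4 CPM, and reads may be shared between the copies. Hsph1 averaged 14.0 ± 2.34 against 9.05 ± 2.92 CPM, and Bag3 49.4 ± 8.43 against 60.9 ± 2.91 CPM. Of 13 tested genes 9 were positive and 4 negative, and 0 passed the edgeR threshold, with 1 higher and 1 lower at an unadjusted edgeR p under 5%, against 3.69% and 2.89% of all tested genes. AT2 markers were highest in wild type 1 (206393 CPM), where the members were lowest. The part of cell handling in the differences between libraries was not tested.

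**Figure D4:**
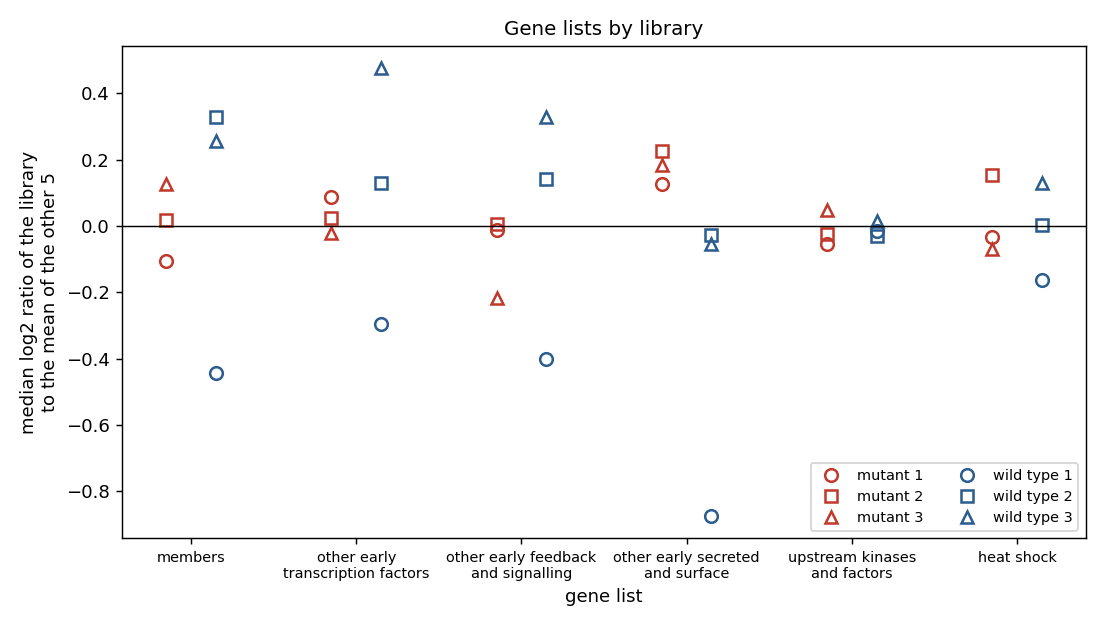
Each point is 1 library's median log2 ratio to the mean of the other 5, over the tested genes of each list, mutants in red and wild types in blue. Wild type 1 is lowest for the members (-0.44) and for the other early-response lists, whereas the libraries lie between -0.05 and 0.05 for the upstream kinases and factors.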

How the data were processed

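Polyadenylated RNA of 3 mutant and 3 wild-type libraries was sequenced, and groups came from the sample titles. The authors deposited raw counts per gene symbol, 1 library per file. Per the submitters' processing notes the genome build was mm9 and the tools were CASAVA and DESeq2, without versions. The sources used here do not name the aligner, counter, annotation or strand handling, so overlapping or near-identical genes may share reads. Genes were filtered with filterByExpr, which left 12899 genes with 99.65% of the counts of mutant 1 and 99.96% to 99.97% of those of the other libraries. TMM scaling was followed by edgeR 4.0.16 in R 4.3.3 (quasi-likelihood F-test, two-sided, Benjamini-Hochberg over all tested genes, threshold 5%). For pattern likeness, CPM were put on the log2 scale after adding a prior count of 2. A count of 3 equalled 0.0977 to 0.133 CPM, and covers counting error only.

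The members, lists and tests were chosen with earlier results of these data known. The rule for named genes took all members, the 4 genes with the smallest p of each other list and the 5 genes with the most similar pattern. Jund, Fosl1, Fosl2, Egr2, Egr3, Egr4, Npas4, the Nr4a genes, Klf6, Spry4, Rgs1, Rgs2, Thbs1 and Sftpc were named after their values were seen, and the motifs were chosen at the same stage. No 2 libraries of a group agreed within sampling noise (chi-square of 19.3 to 80.6 per degree of freedom). Taken as departures from the mean of the group, the libraries numbered 1, 2 and 3 correlated between mutant and wild type at 0.31, 0.21 and 0.17. Libraries of unlike number were not correlated in this way, so these values do not show that the numbers pair samples. The numbers were treated as pairs in an alternative fit, although the labels give no shared day or litter. Alternatives were other scalings (DESeq2 size factors, upper quartile), other filters, DESeq2 1.42.0, limma-voom with quality weights (limma 3.58.1), robust dispersion, the replicate block and leaving out libraries.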

Additional observations from a re-analysis of the deposited data

How the results depend on the processing

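No alternative called any of the 10 immediate early genes at an adjusted p of 5%. Over all tested genes edgeR called 0, DESeq2 called 46 (22 without mutant 1), and edgeR called 3 without mutant 1 and wild type 1, an alternative chosen after seeing the data. Leaving out each library in turn gave 0 to 1 calls, the 1 without wild type 3. The cause of these differences in calls was not tested. Of 170 log2 fold changes of members under an alternative, 33 had the opposite sign. With limma-voom these were 0.0164 for Fosb, -0.0111 for Jun, 0.034 for Egr1. With the replicate block, which pairs the libraries by number, they were 0.014 for Fos, 0.0404 for Egr1, 0.00096 for Ier2, and the block changed no call. Without mutant 1 and wild type 2 they were 0.23 for Fos, 0.12 for Fosb, 0.13 for Egr1, 0.10 for Ier2, 0.00775 for Zfp36, 0.32 for Atf3, in DESeq2 without mutant 1 0.0408 for Fos, 0.0781 for Fosb, 0.0163 for Egr1, 0.15 for Atf3, and without mutant 1 and wild type 1 -0.0432 for Jun. The cause was not tested, beyond the libraries named. With 1 library left out, log2 fold changes ran from -0.15 to 0.18 for Fos, -0.28 to 0.0851 for Fosb, -0.084 to 0.19 for Jun, -0.33 to 0.00763 for Junb, -0.34 to 0.20 for Egr1, -0.21 to 0.11 for Ier2, -0.48 to -0.11 for Ier3, 0.18 to 0.49 for Dusp1, -0.41 to -0.0944 for Zfp36, -0.33 to 0.15 for Atf3. The members' median then ran from -0.30 to 0.0571, and the log2 difference of the group means of their summed level, 0.0128 with all libraries and 0.0393 within numbers, was -0.0358 with TMM-normalised CPM and -0.00984 without Jun, both of the opposite sign. With 1 library left out it ran from -0.17 to 0.15. Scaling and filter alternatives kept the sign of each member's log2 fold change. With 3 libraries a group, the members' 95% intervals, not their counts of 974 and more, limit what could be seen.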
